A study of Mus musculus with 12 samples.

Results

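The platelet-derived growth factor (PDGF) genes were described in mesenchymal cells of the mouse uterus. They comprise the ligand genes Pdgfa, Pdgfb, Pdgfc and Pdgfd, the receptor genes Pdgfra and Pdgfrb, and Pdgfrl, which encodes a receptor-like protein. These 7 genes were taken by name from the 47729 genes of the count table, and each name matched 1 gene. PDGFs are dimeric growth factors that bind receptor tyrosine kinases on mesenchymal cells and drive their division, migration and survival. PDGF-A and PDGF-C chains act mainly through PDGFRα, PDGF-D mainly through PDGFRβ, and PDGF-B through both. In many tissues PDGFRα marks fibroblasts, whereas PDGFRβ is carried by pericytes, the mural cells of small vessels, which endothelial PDGF-B recruits.

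RNA was sequenced from cells sorted by flow cytometry from digested healthy uteri of cycling female Pdgfrb-BAC-eGFP mice, whose age the labels leave out. In these mice a bacterial artificial chromosome carries green fluorescent protein (GFP) under the control of Pdgfrb, so the cells of both groups carry the reporter and were selected on it. GFPtotal (6 libraries) holds all GFP-positive cells, and GFPlow (6 libraries, GFPdim in one label) holds only the dim ones. GFPtotal therefore contains GFPlow-type cells in a share that is not given. The titles call the groups Naive (GFPtotal) and Stromal (GFPlow), and the label of the library kit is TruSeq DNA Nano for both. No label ties a library to a mouse, so every p-value reflects library-to-library spread, which may be technical.

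Depth per library was 12631266 to 14950639 counts in the GFPtotal group and 14339804 to 18425596 counts in the GFPlow group. The sort was checked on marker genes, summed as CPM, the usual depth-scaled count. Pericyte markers summed to 920 to 1612 CPM in GFPtotal cells and 7.55 to 19.7 CPM in GFPlow cells, and fibroblast markers to 23516 to 41106 CPM in GFPtotal cells and 15866 to 24366 CPM in GFPlow cells. Col3a1, Col1a1 and Col1a2 led the fibroblast sum, at means of 11267, 10586 and 6479 CPM in GFPtotal and 6981, 5998 and 4400 CPM in GFPlow. Of that list Col6a1 alone had a lower mean in GFPtotal, 906 CPM against 1071 CPM. Both labels therefore held mesenchymal RNA, with pericyte transcripts mostly in GFPtotal. GFPtotal libraries 3, 4 and 5 stood apart on the leading principal component, which held 34.0% of the variance. They lay at 102 to 107, the other GFPtotal libraries at −3.82 to 6.66, and the GFPlow libraries at −64.6 to −31.1. The header of the file of GFPlow 6 names an alignment with the letter N and the number 8, whereas the other 11 headers match their titles. Its pericyte markers summed to 18.6 CPM, within the range of GFPlow. Its smooth muscle markers, at 68.1 CPM, and its Pdgfrb, at 87.1 CPM, were the highest of GFPlow. In GFPlow the smooth muscle sum was led by Des, with a mean of 27.7 CPM, against 34.7 CPM in GFPtotal. Myh11 averaged 3.10 CPM and Acta2 1.75 CPM in GFPlow, against 132 and 57.0 CPM in GFPtotal. The smooth muscle sum was still under that of the lowest GFPtotal library, 161 CPM.

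The promoter windows of the receptor gene with the highest level and of the ligand gene with the largest difference are shown, from 250 bases before to 50 after the RefSeq start on GRCm38.p6. They are chr5:75152001-75152300 (plus strand) for Pdgfra and chr5:138994895-138995194 (minus strand) for Pdgfa. Capitals mark matches on either strand to the GC box, searched as GGGCGG, the CCAAT box, searched by those letters, or the TATA box, for which the letters searched on each window were TATAAA. No matches overlap in these windows.
Pdgfra: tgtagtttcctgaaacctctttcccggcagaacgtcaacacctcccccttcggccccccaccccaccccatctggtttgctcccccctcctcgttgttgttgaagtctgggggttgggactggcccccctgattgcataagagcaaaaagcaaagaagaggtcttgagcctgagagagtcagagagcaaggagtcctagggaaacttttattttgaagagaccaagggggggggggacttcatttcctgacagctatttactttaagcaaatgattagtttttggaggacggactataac
Pdgfa: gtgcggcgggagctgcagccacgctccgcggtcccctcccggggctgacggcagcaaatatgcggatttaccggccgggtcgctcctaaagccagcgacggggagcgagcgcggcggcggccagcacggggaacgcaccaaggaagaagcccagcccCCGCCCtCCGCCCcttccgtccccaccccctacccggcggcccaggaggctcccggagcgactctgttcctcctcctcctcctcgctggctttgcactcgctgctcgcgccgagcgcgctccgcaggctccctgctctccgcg
The Pdgfra window held none of these letters and had a GC content of 51.0%, near the median of 52.7% over the 32851 windows of the table. The Pdgfa window had a GC content of 73.3% and 2 GC boxes, a motif found in 35.7% of all windows. The start used for Pdgfa lies 2426 bases from the gene start in the files. A second RefSeq start of Pdgfa lies 3089 bases from that gene start. Its window (chr5:138994232-138994531), not shown, had a GC content of 67.0% and 1 GC box. TATA boxes were found in 13.6% and CCAAT boxes in 37.4% of all windows, and of the other members with a window, Pdgfd (chr9:6168236-6168535) held 1 TATA box and Pdgfc (chr3:81036166-81036465) no motif.

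Of the 6 PDGF genes tested between the groups 1 passed, Pdgfrb, which was higher in GFPtotal; over all tested genes 5.41% passed. It encodes the receptor whose control region drives the reporter, so its difference also checks the labels. Both groups were sorted on that reporter, so the Pdgfrb call and its p-values are not independent of the sort. Pdgfrb (ENSMUSG00000024620, GRCm38 chromosome 18, 61045150 to 61085061) had a lowest, median and highest level of 78.9, 104 and 171 CPM in GFPtotal, against 50.7, 57.9 and 87.1 CPM in GFPlow. In 5 of the 6 GFPtotal libraries Pdgfrb stood above the highest GFPlow library, and GFPtotal 2 fell within the GFPlow range. The mean was 114.3 ± 36.0 CPM in GFPtotal cells and 65.1 ± 15.0 CPM in GFPlow cells (SD, n = 6 each), a log2 fold change of 0.81 (SE 0.21) with an adjusted p of 0.0305 by edgeR's quasi-likelihood test with Benjamini-Hochberg adjustment over 14523 genes. In these bulk samples, fewer cells of a type and less RNA per cell cannot be told apart. The pericyte markers given above were higher in GFPtotal too, and their part in the Pdgfrb difference was not tested. Leaving out GFPtotal 4, 5 or 6 or GFPlow 1, 2, 3 or 5 ended the call, with log2 fold changes of 0.66 to 0.91 and adjusted p of 0.0167 to 0.0789 over all 12 such fits. Without GFPtotal 3, 4 and 5 together the log2 fold change was 0.64 (adjusted p = 0.207), without GFPlow 6 it was 0.91 (adjusted p = 0.0256), and with total library size as the scaling it was 0.79 (adjusted p = 0.0814).

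Across all genes, 785 of 14523 tested genes (5.41%) were called, 661 higher (4.55%) and 124 lower (0.854%) in GFPtotal. With total library size as the scaling the split was 505 higher and 257 lower. Of the 7 PDGF genes 6 passed the filter on low counts. By edgeR 1 was called higher, Pdgfrb, whose reporter the sort used, and 0 lower. At an unadjusted p under 0.05 edgeR gave 3 higher and 0 lower, a threshold at which the share of all tested genes was not computed. At the adjusted threshold DESeq2 called 2 higher and 0 lower, and limma-voom 1 higher and 0 lower. Over all genes DESeq2 called 1381 and limma-voom 905 in either direction, against 785 by edgeR. None of the 7 had groups that did not overlap, against 2.86% of tested genes with every GFPtotal library above every GFPlow library.

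**Figure D1:**
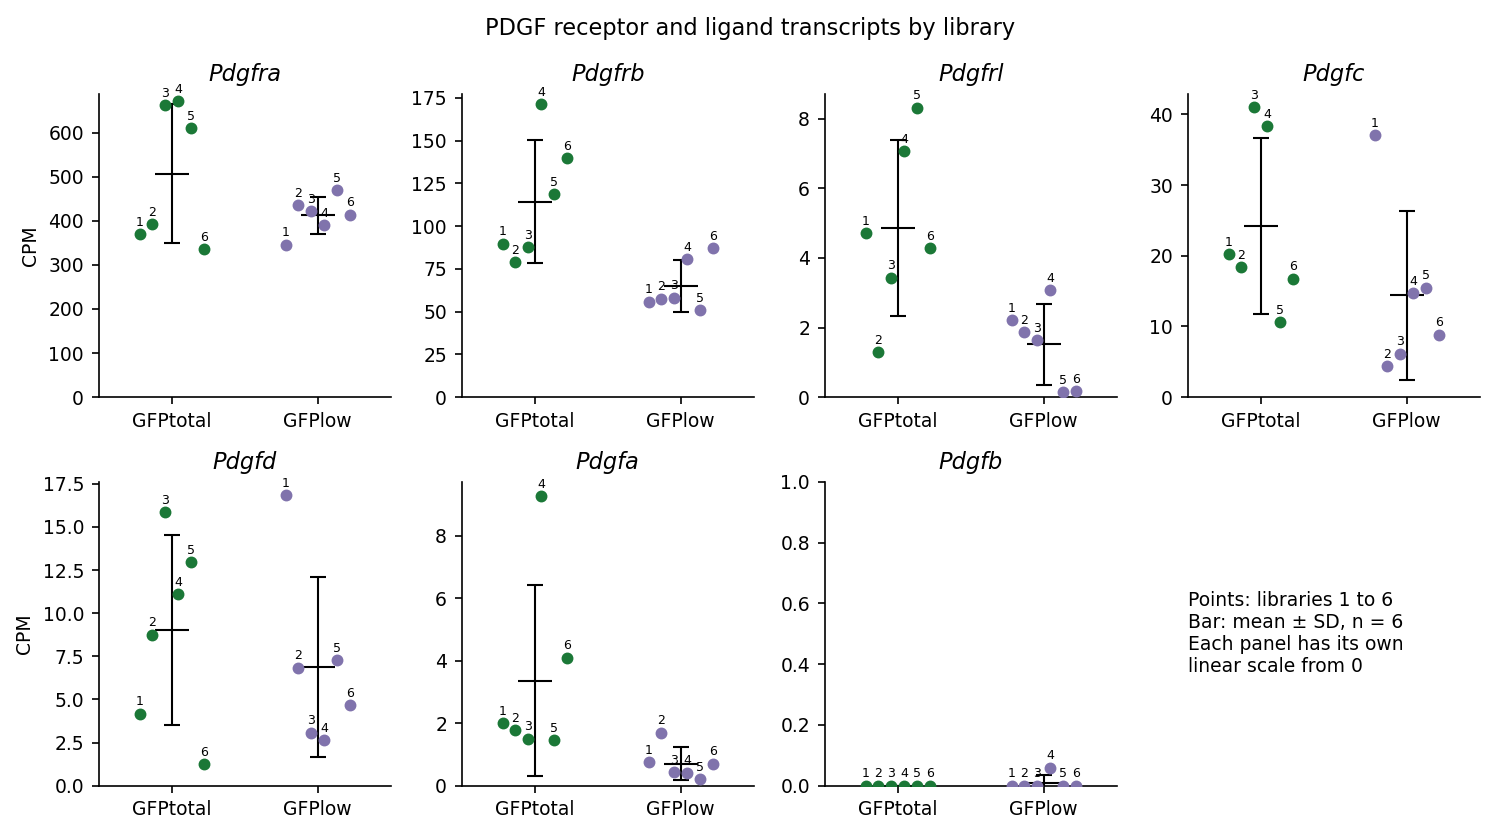
Level of each PDGF gene in CPM (vertical axes from 0, one panel per gene, each on its own scale) in every GFPtotal library (left) and GFPlow library (right), with points for libraries and the mean and SD. The groups overlap in every panel, and Pdgfrb is above the highest GFPlow library in 5 of 6 GFPtotal libraries.

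Pdgfra, the receptor of fibroblasts, was abundant in both populations. Pdgfra (ENSMUSG00000029231, chromosome 5, 75152292 to 75198215) stood at 334.9, 501.2 and 671.8 CPM in GFPtotal (lowest, median and highest), against 345.7, 418.2 and 468.7 CPM in GFPlow. GFPtotal 3, 4 and 5 held the high values, 610 to 672 CPM, while GFPtotal 1, 2 and 6 had 335 to 392 CPM, inside or just under the GFPlow range. Pdgfra differed by a log2 fold change of 0.30 (SE 0.18, 95% interval −0.06 to 0.65, edgeR adjusted p = 0.403), and without GFPtotal 3, 4 and 5 it was −0.20 (adjusted p = 0.621). In those 3 libraries pericyte markers summed to 1372 to 1612 CPM, against 920 to 1232 CPM in GFPtotal 1, 2 and 6, and fibroblast markers to 23516 to 27431 CPM, against 38355 to 41106 CPM. Col3a1, Col1a1 and Col1a2 led the fibroblast sum, and whether the rest of that list followed it in these libraries was not tested. Smooth muscle markers summed to 288 to 375 CPM in GFPtotal 3, 4 and 5, against 161 to 202 CPM in GFPtotal 1, 2 and 6. Mitochondrial genes took 32.4% to 40.5% of the counts of GFPtotal 3, 4 and 5, against 45.3% to 49.0% in GFPtotal 1, 2 and 6, and 20316 to 20915 genes were detected, against 19613 to 19840. The part of the markers, the mitochondrial share and the number of genes detected in the Pdgfra values was not tested.

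Pdgfrl, related to the receptors but lacking a kinase, was a low-count gene. Pdgfrl (ENSMUSG00000031595, chromosome 8, 40926212 to 40990785) had 1.30, 4.50 and 8.32 CPM in GFPtotal, against 0.15, 1.75 and 3.07 CPM in GFPlow. Of 6 GFPtotal libraries 5 exceeded the highest GFPlow library, and the lowest GFPlow libraries, 5 and 6, held 2 and 3 counts. Pdgfrl differed by a log2 fold change of 1.67 (SE 0.67, 95% interval 0.36 to 2.99), and the edgeR adjusted p of 0.168 missed the threshold.

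Per unit length, Pdgfra and Pdgfrb stood above the ligand genes in every library. Levels between genes are given as RPKM, which is CPM divided by exon length in kilobases. Pdgfra had 50.6 ± 15.7 RPKM in GFPtotal and 41.2 ± 4.17 RPKM in GFPlow, and Pdgfrb 20.9 ± 6.58 RPKM in GFPtotal and 11.9 ± 2.74 RPKM in GFPlow (SD, n = 6 each). Pdgfra exceeded Pdgfrb in 12 of 12 libraries, and Pdgfrb exceeded every ligand and Pdgfrl in 12 of 12. Among tested genes, Pdgfra lay at percentile 97.5 of mean level per length and Pdgfrb at 88.6, followed by Pdgfc at 56.5, Pdgfd at 45.2, Pdgfrl at 21.1 and Pdgfa at 12.6. The neighbours lower in this order were not separated in every library: Pdgfc was above Pdgfd in 10 of 12, Pdgfd above Pdgfrl in 9 of 12 and Pdgfrl above Pdgfa in 8 of 12.

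**Figure D2:**
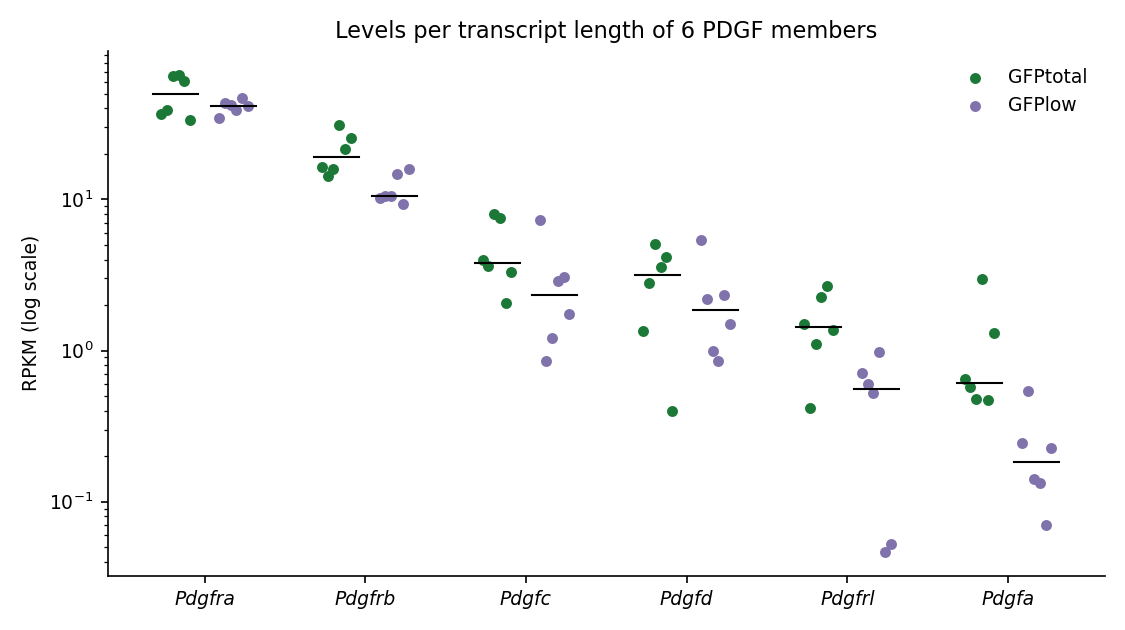
Level per length in RPKM on a log axis of the PDGF genes in GFPtotal and GFPlow libraries, one point per library and a line at each group's median. Pdgfra and Pdgfrb are the upper genes in all 12 libraries, and the ranges of Pdgfc, Pdgfd, Pdgfrl and Pdgfa overlap.

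The balance of the receptors was compared within each library, where library scaling cancels. Pdgfrb is the gene whose reporter the cells were sorted on. The ratio and its p-values are therefore not independent of the sort. Pdgfra per length was 1.31 to 4.12 times Pdgfrb in GFPtotal and 2.60 to 5.05 times in GFPlow. The log2 ratio of Pdgfrb to Pdgfra averaged −1.27 ± 0.55 in GFPtotal and −1.82 ± 0.38 in GFPlow (SD, n = 6 each), a difference of 0.54 with an exact two-sided permutation p of 0.0779 over all assignments of the labels, whose smallest possible p is 0.00216. The difference missed the 0.05 threshold. It was 0.37 without GFPtotal 6 (exact p = 0.149) and 0.44 without GFPlow 5 (exact p = 0.158). It passed without GFPtotal 3 (0.70, exact p = 0.0216) and without GFPlow 6 (0.63, exact p = 0.0476), and without GFPtotal 3, 4 and 5 together (0.82, exact p = 0.0476).

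Pdgfc and Pdgfd made up most of the ligand transcripts. Pdgfc (ENSMUSG00000028019, chromosome 3, 81036416 to 81214040) encodes a ligand secreted in a latent form that proteases activate. It had 10.6, 19.3 and 41.0 CPM in GFPtotal cells and 4.35, 11.8 and 37.1 CPM in GFPlow cells. GFPtotal 3 and 4 exceeded the highest GFPlow library, GFPlow 1, and the others overlapped. Pdgfc differed by a log2 fold change of 0.75 (SE 0.47, 95% interval −0.18 to 1.67, edgeR adjusted p = 0.420).

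Pdgfd (ENSMUSG00000032006, chromosome 9, 6168612 to 6378843), the other latent ligand, had 1.25, 9.93 and 15.9 CPM in GFPtotal cells and 2.66, 5.75 and 16.8 CPM in GFPlow cells. GFPtotal 3, 4 and 5 held 11.1 to 15.9 CPM, while GFPtotal 1, 2 and 6 held 1.25 to 8.74 CPM, and no GFPtotal library exceeded GFPlow 1. The log2 fold change was 0.39 (SE 0.54, 95% interval −0.67 to 1.45, edgeR adjusted p = 0.755), and without GFPtotal 3, 4 and 5 it was −0.57 (adjusted p = 0.802).

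Pdgfa showed the largest difference of the PDGF genes at a low level, and missed the threshold. Pdgfa (ENSMUSG00000025856, chromosome 5, 138976014 to 138997370) had 1.46, 1.90 and 9.27 CPM in GFPtotal cells and 0.22, 0.57 and 1.70 CPM in GFPlow cells, from 21 to 151 counts in each GFPtotal library and 3 to 30 counts in each GFPlow library. GFPtotal 1, 2, 4 and 6 exceeded every GFPlow library, and GFPtotal 4 held the highest value. The log2 fold change was 2.23 (SE 0.66, 95% interval 0.93 to 3.53, edgeR adjusted p = 0.0599). Without GFPtotal 4 it was 1.602 (adjusted p = 0.207) and without GFPtotal 3, 4 and 5 together 1.86 (adjusted p = 0.352), whereas the gene was called without GFPlow 2 (2.70, adjusted p = 0.0385) and by DESeq2 (2.21, adjusted p = 0.00967). Antisense exons of 6330403L08Rik share 26.1% of its exonic bases, and counting without strand does not separate their reads.

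Pdgfb, the chain that endothelium and platelets are known to supply, was essentially undetected. Pdgfb (ENSMUSG00000000489, chromosome 15, 79995900 to 80014808) had 0 counts of 83943629 in GFPtotal, which allows up to 0.0367 CPM at 3 counts over the group, and 1 count of 96035497 in GFPlow. This limit covers counting error only. Endothelial markers summed to 33.1 to 59.6 CPM in GFPtotal cells and 39.3 to 60.0 CPM in GFPlow cells, with Kdr the most abundant, 4 of 8 under 1 CPM on average and Cldn5 at 0 in all libraries. The sums hid opposite directions. Kdr averaged 11.2 CPM in GFPtotal and 20.8 CPM in GFPlow, and Cdh5 5.08 and 16.2 CPM. Tek averaged 11.4 CPM in GFPtotal and 5.53 CPM in GFPlow, and Emcn 14.3 and 4.39 CPM. Pecam1 and Vwf, at low counts, were also higher in GFPtotal. The 6 platelet and megakaryocyte markers summed to 0.57 to 8.28 CPM in GFPtotal cells and 0.35 to 2.55 CPM in GFPlow cells. Of these, Itga2b was the most abundant, with a mean of 2.12 CPM in GFPtotal and 0.131 CPM in GFPlow and counts in 11 libraries, Treml1 had counts in 8 libraries, and Pf4 and Gp9 were at 0 in all 12.

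**Figure D3:**
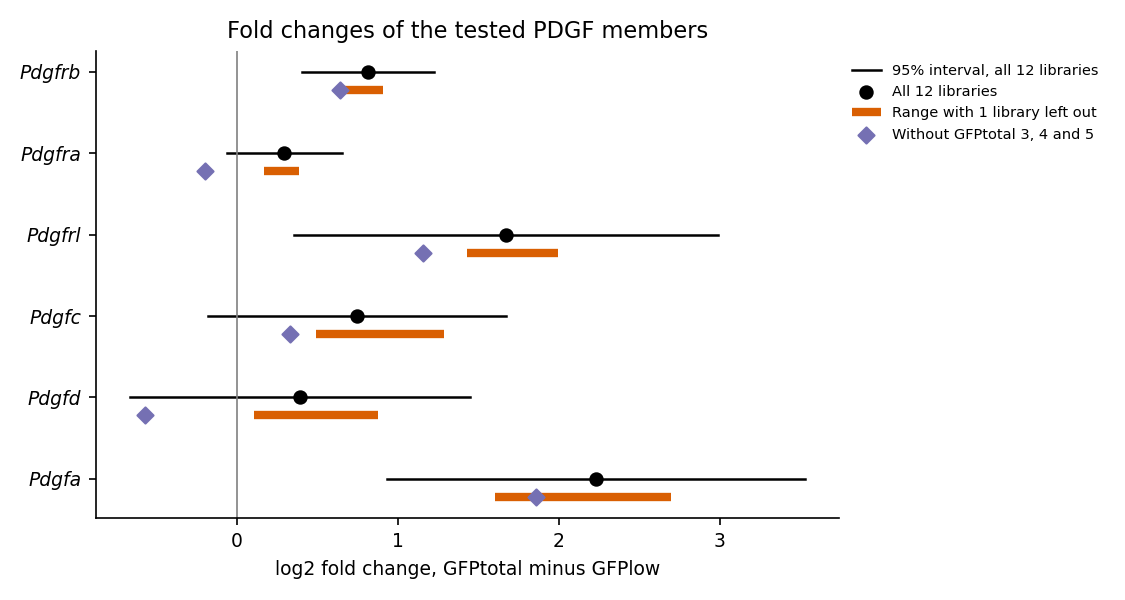
Log2 fold change, GFPtotal minus GFPlow, of the 6 tested PDGF genes: black points with 95% intervals for all 12 libraries, orange bars for the range with 1 library left out, and diamonds for the fit without GFPtotal 3, 4 and 5. The intervals of Pdgfrb, Pdgfa and Pdgfrl lie above 0, and Pdgfrb alone passed the adjusted threshold.

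Ligand shares per length spread widely over the libraries of each group, and the groups overlapped for every ligand. Pdgfc took 31.0%, 56.3% and 66.7% of ligand RPKM in GFPtotal (lowest, median and highest) and 23.8%, 53.8% and 74.2% in GFPlow. Pdgfd took 7.99%, 31.3% and 62.0% in GFPtotal and 21.9%, 42.5% and 61.1% in GFPlow, and Pdgfa 3.53%, 9.49% and 26.3% in GFPtotal and 1.28%, 4.72% and 15.1% in GFPlow. Pdgfra and Pdgfrb together had 6.02 to 12.3 times the summed ligand RPKM in GFPtotal and 3.46 to 22.5 times in GFPlow.

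**Figure D4:**
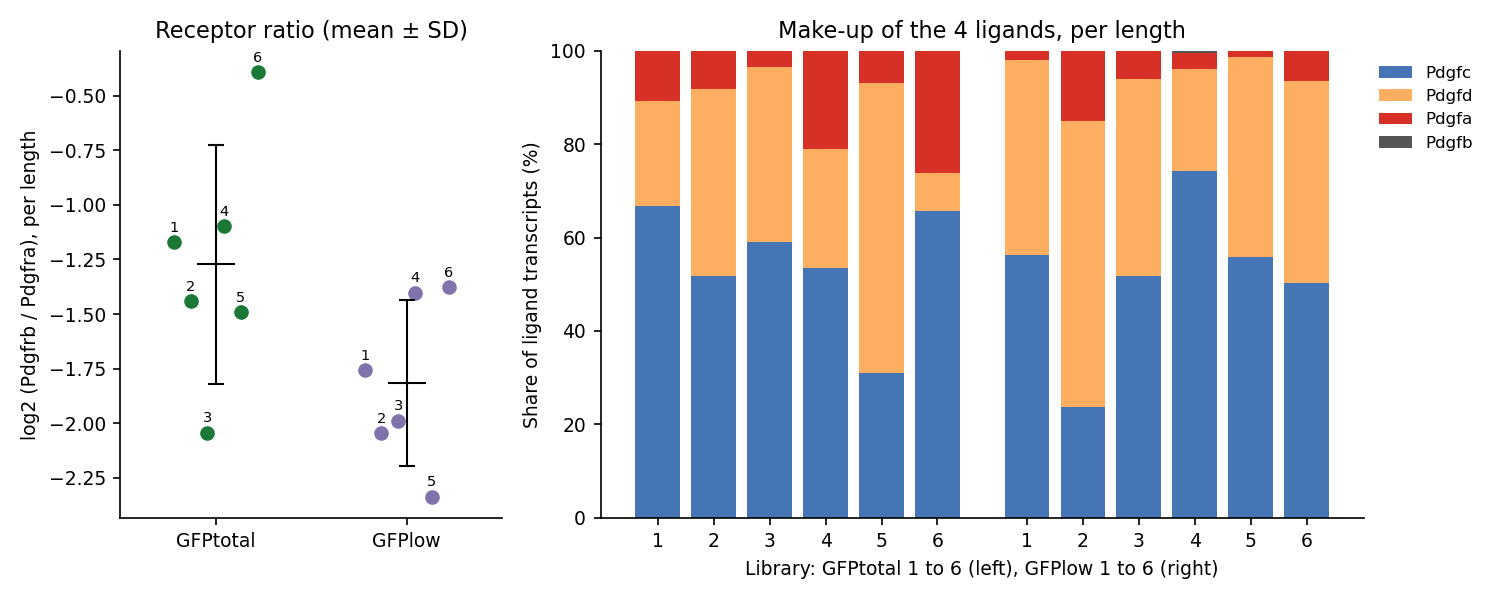
Log2 ratio of Pdgfrb to Pdgfra per length by library, and the share of each ligand gene in the summed ligand RPKM (percent) by library, GFPtotal left of GFPlow. The ratio averages −1.27 in GFPtotal and −1.82 in GFPlow with overlapping groups, and Pdgfc and Pdgfd hold most of the ligand RPKM.

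The other genes of the pathway were taken as 87 genes in 7 lists, of which 79 were tested. Of these, 9 were called higher (11.4%, against 4.55% of all tested genes) and 1 lower (1.27%, against 0.854%) in GFPtotal. The median log2 fold change of the 79 was 0.08, against −0.000599 over all tested genes. Counted at an unadjusted p under 0.05, edgeR gave 2 higher and 0 lower in ligand processing and 4 higher and 1 lower in co-receptors. It gave 4 higher and 1 lower among negative regulators, and 8 higher and 0 lower among early response genes. Among other class III receptor kinases and ligands it gave 1 higher and 0 lower. The share of all tested genes at that threshold was not computed.

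In ligand processing, 1 of 6 tested genes was higher (median log2 fold change 0.42). Plat, the tissue plasminogen activator that can activate PDGF-C, had 17.6 to 67.1 CPM in GFPtotal cells and 3.06 to 19.4 CPM in GFPlow cells (log2 fold change 1.75, SE 0.44, edgeR adjusted p = 0.0279). Without GFPtotal 3, 4 or 5 or GFPlow 3, 4 or 6 the Plat call was lost, and without those 3 GFPtotal libraries together its log2 fold change was 0.82 (adjusted p = 0.489). Plat also missed the threshold with total library size as the scaling (adjusted p = 0.0637).

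Among ligand-binding proteins and co-receptors, 3 of 9 were higher and 1 was lower (median log2 fold change 0.04). Cspg4, the NG2 proteoglycan that binds PDGF-AA and is also used to mark pericytes, had 3.64 to 16.9 CPM in GFPtotal cells and 0 to 1.32 CPM in GFPlow cells (4.05, SE 0.73, edgeR adjusted p = 0.00324). Nrp1, a co-receptor, had 201 to 438 CPM in GFPtotal cells and 53.2 to 232 CPM in GFPlow cells (1.55, SE 0.34, adjusted p = 0.0147). Sparc, a matrix protein that binds PDGF-B chains, averaged 2623 ± 203 CPM in GFPtotal cells and 1768 ± 399 CPM in GFPlow cells (0.57, adjusted p = 0.0392). Itgb3, an integrin subunit, was lower at 46.1 to 209 CPM in GFPtotal, against 234 to 436 CPM in GFPlow (−1.29, SE 0.33, adjusted p = 0.0348). The Sparc call was lost without any one library other than GFPlow 1 or 6, and the Itgb3 call without GFPtotal 4 or 5 or GFPlow 2, 3, 4 or 6. Sparc also missed the threshold with total library size as the scaling (adjusted p = 0.0883), and Itgb3 without the low-count filter (adjusted p = 0.0959).

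Inside the cell, edgeR called 0 of 22 receptor adaptors and effectors (median log2 fold change −0.10), with 3 higher and 1 lower at an unadjusted p under 0.05, and DESeq2 and limma-voom also called 0. The most abundant per length were Pik3r1, a regulatory subunit of PI3 kinase, at 214 to 345 CPM in GFPtotal cells and 177 to 238 CPM in GFPlow cells (0.36, SE 0.14, adjusted p = 0.172), and Rasa1, a Ras GTPase-activating protein, at 108 to 161 CPM in GFPtotal cells and 76.6 to 142 CPM in GFPlow cells (0.40, SE 0.16, adjusted p = 0.165). Of 12 Ras-MAPK and PI3K-Akt genes, edgeR called 0 (median −0.15) with 1 at an unadjusted p under 0.05, while DESeq2 and limma-voom each called 1, Nras, as lower. Nras, a small GTPase and the most abundant of them per length, had 97.6 to 144 CPM in GFPtotal cells and 159 to 183 CPM in GFPlow cells, groups that did not overlap (−0.46, SE 0.13, adjusted p = 0.0551). For both lists the share of all tested genes at the unadjusted threshold was not computed, so those counts have no background beside them.

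Of 14 tested negative regulators 2 were higher (median 0.15). Spred1, a Ras pathway inhibitor, had 82.9 to 136 CPM in GFPtotal cells and 35.5 to 69.0 CPM in GFPlow cells (0.94, SE 0.18, edgeR adjusted p = 0.00487), with no overlap. Dusp6, an ERK phosphatase, averaged 3.80 ± 3.36 CPM in GFPtotal cells and 0.338 ± 0.407 CPM in GFPlow cells (3.44, adjusted p = 0.0371). Of 13 early response genes 2 were higher (median 1.00): Cxcl1, a chemokine, at 0.97 to 25.7 CPM in GFPtotal cells and 0 to 2.03 CPM in GFPlow cells (4.11, adjusted p = 0.0306), and Egr1, a transcription factor, at 890 ± 157 CPM in GFPtotal cells and 580 ± 108 CPM in GFPlow cells (0.62, adjusted p = 0.0267). Dusp6 missed the threshold once GFPtotal 2, 3 or 4 or GFPlow 2, 3, 4 or 5 was left out, and Egr1 without GFPtotal 3 or 4 or GFPlow 3 or 4. The Cxcl1 call was absent without GFPtotal 3, 4 or 5 or GFPlow 1, 3, 4 or 6, and its value was 5.20 without GFPlow 2 and 2.01 without GFPtotal 3, 4 and 5 together (adjusted p = 0.532). The Dusp6 value without GFPlow 6 was 4.19. By limma-voom neither Dusp6 (adjusted p = 0.101) nor Cxcl1 (adjusted p = 0.109) was called, and calls were also lost for Cxcl1 without the low-count filter (adjusted p = 0.0775) and for Egr1 with total library size as the scaling (adjusted p = 0.103).

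Of the related class III receptor kinases and their ligands, 1 of 3 tested was higher. Kitl, the ligand of Kit, had 8.04 to 39.2 CPM in GFPtotal cells and 0.24 to 1.52 CPM in GFPlow cells (4.79, SE 0.57, edgeR adjusted p = 0.000112). Cspg4, Nrp1 and Kitl kept their calls under all 21 alternatives. Without GFPtotal 3, 4 and 5 together, the log2 fold change was 3.72 for Kitl (adjusted p = 0.00239), and the calls were lost for Itgb3 (−0.75, adjusted p = 0.0520), Spred1 (0.77, adjusted p = 0.0743), Dusp6 (3.06, adjusted p = 0.204) Sparc (0.62, adjusted p = 0.0827) and Egr1 (0.42, adjusted p = 0.255). The called genes of the 7 lists other than Itgb3 were higher in GFPtotal, and so were pericyte markers, at 920 to 1612 CPM in GFPtotal cells and 7.55 to 19.7 CPM in GFPlow cells, and smooth muscle markers, at 161 to 375 CPM in GFPtotal cells and 21.2 to 68.1 CPM in GFPlow cells. Their part in the calls was not tested.

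**Figure D5:**
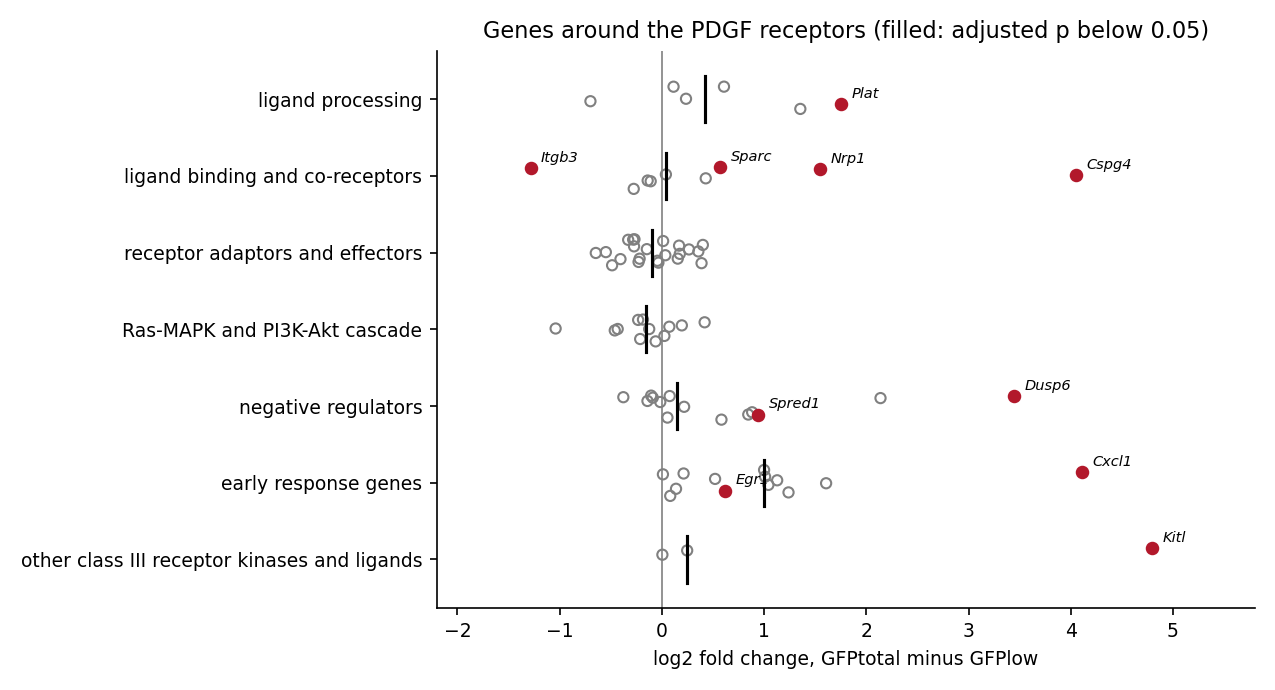
Log2 fold change, GFPtotal minus GFPlow, of the tested genes of the 7 pathway lists (one point per gene), with called genes filled and named and a black line at each list's median. Of 79 tested genes 9 were called higher and 1, Itgb3, lower.

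Profiles over the 12 libraries were compared by the root mean square difference of centred log2 CPM among 6536 named genes with a mean log2 CPM of at least 3. Clone and predicted-gene names were left out. The genes most like each receptor were then listed. For Pdgfrb they were Zdhhc14 (0.25), Gnas (0.25), Nfix (0.27), Sgce (0.28) and Adgrl3 (0.28), against a median of 0.69 over all genes compared. For Pdgfra they were Sptbn1 (0.13), Rmnd1 (0.15), Fth1 (0.17), Arhgef12 (0.17) and Fam129a (0.17), against a median of 0.55. All genes share the depth and scaling of each library, so these values are descriptive.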

How the data were processed

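RNA was measured in 6 GFPtotal and 6 GFPlow libraries. The deposited values are raw counts per gene: featureCounts 1.6.4 was run by the authors on paired-end data, per the file headers, by gene over exons (Ensembl 84, GRCm38, mapping quality of at least 10, strand not used). The submitters' processing notes also name cutadapt and SAMtools, and no aligner. The series table and the single files agreed exactly in 12 of 12 libraries. Symbols came from GENCODE M21 for 47224 of 47729 genes, promoter windows from RefSeq for 4 of 7 members.

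Genes passing filterByExpr were scaled by TMM and tested with edgeR 4.0.16 (R 4.3.3; quasi-likelihood F test, robust, GFPtotal minus GFPlow, no covariate, Benjamini-Hochberg, threshold 0.05, two-sided). SE is the absolute log2 fold change divided by the square root of F, and 95% intervals use a normal approximation. CPM use TMM-scaled library sizes, and log2 CPM a prior count of 2. The script was tested on simulated data. Alternatives were other scalings, filters, DESeq2 1.42.0, limma-voom (limma 3.58.1), a replicate block and libraries left out. Genes were named by rule: all members, per pathway list the called genes that changed most (up to 4; if none, the 2 most abundant), and the 5 most similar profiles for each receptor. Some genes of the pathway lists are not reported here and were left out of the list counts, and in the Ras-MAPK and PI3K-Akt list only the most abundant gene is named. Members and lists were chosen with earlier results of these data known.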

Additional observations from a re-analysis of the deposited data

How the results depend on the processing

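Leaving out 1 library at a time gave 467 to 970 called genes, 406 to 791 higher and 61 to 179 lower. The log2 fold change of Pdgfrb was 0.66 to 0.91, of Pdgfa 1.602 to 2.70, of Pdgfc 0.49 to 1.29, of Pdgfd 0.11 to 0.88, of Pdgfra 0.17 to 0.39 and of Pdgfrl 1.43 to 2.00. The log2 ratio of Pdgfrb to Pdgfra differed by 0.37 to 0.70 (exact permutation p of 0.0216 to 0.158). Called genes were 0 to 1 in ligand processing, 2 to 4 in co-receptors, 0 to 1 in the Ras-MAPK and PI3K-Akt cascade, 1 to 3 in negative regulators and 0 to 3 in early response genes. Without GFPtotal 3, 4 and 5 together, 295 genes were called (245 higher, 50 lower), with 0 in ligand processing, 2 in co-receptors, 0 in negative regulators and 0 in early response genes. The log2 fold change was then 0.64 for Pdgfrb, −0.57 for Pdgfd and −0.20 for Pdgfra, and the receptor ratio differed by 0.82 (exact p = 0.0476); fewer libraries entered this fit. With total library size as the scaling, 257 genes were lower, Pdgfrb stood at 0.79 (adjusted p = 0.0814), 0 genes were called in ligand processing, and 1 in each of the cascade and early response. DESeq2 called 1381 genes (1033 higher, 348 lower), 1 in the cascade, 5 early response genes, and Pdgfa at 2.21. With limma-voom 230 genes were lower, and 1 cascade gene and 4 early response genes, without Cxcl1, were called. In the cascade 1 gene was called without mitochondrial genes, 1 early response gene without a low-count filter, and 1 negative regulator with a filter of 1 CPM in 6 libraries. Replicate numbers showed no clear pairing of the libraries: same-numbered deviations correlated at −0.14 to 0.089, best with their own number for 2 of 6. No label gives pairs, and weak correlations over 6 numbers cannot exclude them. With the replicate block 582 genes were called, Pdgfrb stood at 0.79 (adjusted p = 0.0215), Pdgfa at 2.11 (adjusted p = 0.129), and 0 genes were called in ligand processing and 1 in negative regulators, with the calls of Plat (adjusted p = 0.105), Sparc (0.0932), Dusp6 (0.0891) and Egr1 (0.0953) lost; the paired receptor ratio had an exact p of 0.0625. The causes of these changes were not tested. Low counts limit Pdgfa, Pdgfrl and Pdgfb.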
